A study of Drosophila eugracilis and Drosophila pseudoobscura and Drosophila bifasciata with 4 samples.

Results

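Introns of 100 to 999 nt were followed in ovary RNA of 3 Drosophila species, 1 library per species. An intron was taken as a gap between the aligned blocks of a read, counted once per read pair (a pair being both ends of 1 RNA fragment) and placed on the strand that most of its pairs used. A gap was kept when at least 10 pairs spliced it and when no other gap of at least 10 pairs in the same library used its start or its end. This left 3303 mid-length introns of 20163 introns of at least 10 pairs in D. pseudoobscura (Dpse), 3569 of 14782 in D. eugracilis (Deug) and 3024 of 20268 in D. bifasciata (Dbif), or 9896 of 55213 over the 3 libraries. Length and number of pairs chose the members, so both are described below without a test.

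The libraries were made from polyadenylated RNA of wild type females on standard food, with a kit that keeps the strand of the RNA. The strain labels were MV2-25 for D. pseudoobscura, SHL12 for D. eugracilis and Jozankei, Hokaidou for D. bifasciata, and the age was labelled as 2 to 7 days, whereas the extraction text gave 3 to 7 days. A further library of D. eugracilis ovaries was made from total RNA with QuantSeq, which starts reverse transcription at the poly-A tail and so reads the ends of transcripts. D. pseudoobscura and D. bifasciata belong to the obscura group, and D. eugracilis to the melanogaster group. With 1 library per species a difference between species cannot be told apart from a difference between libraries or assemblies, no test between species was possible, and the intervals given (exact, 95%) cover counting error only. The ovary origin could not be checked by marker genes, since the gene table used here names nearly all D. eugracilis genes by number alone.

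Most introns of Drosophila are short, close to the smallest size that the splicing machinery can remove, and are recognised as a unit across the intron. Longer introns carry more room for regulatory sequence, transposon insertions and nested genes, and their splice sites are more often paired across the exon. An intron that is still present in polyadenylated RNA is called retained.

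The libraries held 7082759 read pairs in Dpse, 6551749 in Deug and 6994057 in Dbif, so that 10 pairs stood for 1.41, 1.53 and 1.43 pairs per 1000000 read pairs (ppm). Pairs with distinct alignments made up 79.9%, 64.1% and 69.0% of them in the same order. A member's pairs lay on its minor strand in 1.13%, 0.312% and 0.819% of cases. Gaps with fewer than 8 aligned bases on one side made up 8.13% of all gaps in the Dpse reads and 9.75% in Deug, but 0.413% in Dbif. Reads that reach only just across an intron were thus rarer in the Dbif file, and their part in the retained shares of Dbif was measured only by the border settings given at the end.

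Mid-length introns were a larger class in Deug than in either obscura group species. They made up 24.1% of the introns of at least 10 pairs in Deug, against 16.4% in Dpse and 14.9% in Dbif. Short isolated introns (40 to 99 nt) numbered 8603 in Deug, 13015 in Dpse and 13447 in Dbif, and long ones (1000 nt or more) 1636, 2382 and 2296. A further 560 gaps of 100 to 999 nt in Dpse, 381 in Deug and 605 in Dbif shared an end with another intron and were left out.

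Within the class the lengths were alike in the 3 species. The median was 290 nt in Dpse (95% interval of the median 280 to 302), 274 nt in Deug (265 to 282) and 273 nt in Dbif (262 to 283). The middle 50% of lengths ran from 167 to 544 nt, from 158 to 473 nt and from 159 to 513 nt, respectively. Introns of 100 to 199 nt were the most numerous in each species, with 33.6%, 35.4% and 36.0% of members, and introns of 500 nt or more made up 27.9%, 23.0% and 26.0%. No second peak stood out, since the number of introns fell with every further 100 nt, except between the last bins of Dbif (119 and 130 introns). For comparison, the medians of short isolated introns were 65 nt in Dpse, 61 nt in Deug and 64 nt in Dbif.

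**Figure D1:**
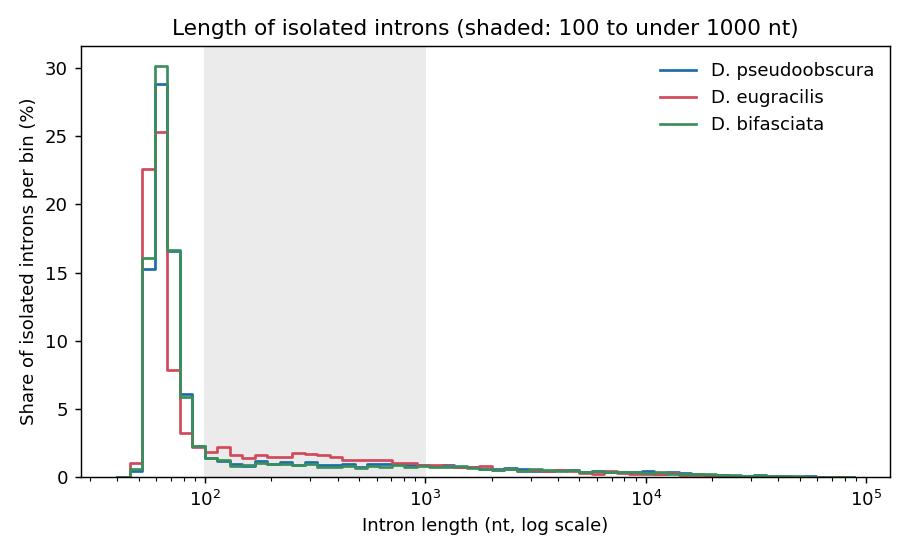
Lengths of all isolated introns of at least 10 pairs in each species (x axis, nt, log scale) as the share of isolated introns per bin (y axis, percent); the grey band marks 100 to 999 nt. The peak near 60 to 70 nt was shared, and inside the band the Deug line lay above the other lines except at the upper end.

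The limits of the class cut through a continuous range. In the 5 nt from 100 nt upwards there were 112 isolated introns in Dpse, 75 in Deug and 112 in Dbif, and in the 5 nt below it 132, 113 and 153. In the 50 nt below 1000 nt there were 69, 39 and 67 isolated introns, and in the 50 nt from 1000 nt upwards 56, 56 and 52. Exactly 10 pairs were held by 103, 158 and 105 members, while 125, 171 and 142 mid-length gaps had 9 pairs. A frame of 3 was not visible in the lengths, as multiples of 3 made up 33.6% (interval 32.0 to 35.2), 34.2% (32.6 to 35.7) and 32.5% (30.8 to 34.2) of members.

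The word constitutive held for most members and not for all. No other gap with even 1 pair used either end of 70.5% of the members in Dpse, 80.2% in Deug and 72.4% in Dbif. In 336, 198 and 305 members (10.2%, 5.55% and 10.1%) the intron took less than 90% of the pairs spliced at its own ends. The remainder went to gaps that each had fewer than 10 pairs. Short introns were more uniform, with 93.4%, 93.0% and 93.1% free of any other gap and 1.18%, 1.27% and 1.52% under the 90% mark. Long introns were less so, with 52.0%, 65.0% and 62.3% free of any other gap and 18.8%, 13.1% and 17.3% under the 90% mark. Shared ends do not show an intron that lies inside a longer one. Inside another intron of at least 10 pairs on the same strand lay 19 of 3303 members in Dpse, 400 of 3569 in Deug and 180 of 3024 in Dbif. Of the short introns it was 28 of 13015, 981 of 8603 and 802 of 13447. The shares of members and of short introns were thus close to each other in Deug and in Dbif. By this measure Deug was not the most uniform library.

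The number of spliced pairs was low for most members and very high for a few. The median was 32 pairs in Dpse, 31 in Deug and 36 in Dbif, or 4.52, 4.73 and 5.15 ppm. At least 100 pairs were found for 448, 659 and 589 members, which is 13.6%, 18.5% and 19.5% of the class. Among short introns the share was 7.92%, 12.48% and 11.97%, and among long ones 8.1%, 11.3% and 8.5%. The share was thus highest in the mid-length class in each library. The 10 most spliced introns alone held 13.0%, 20.9% and 16.5% of all pairs of the class. Length and number of pairs were nearly unrelated across members, with Spearman's rho of -0.01 in Dpse, -0.03 in Deug and -0.06 in Dbif (all points of a species come from 1 library). In whole ovaries a lower level in every cell and fewer expressing cells cannot be told apart.

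The most spliced mid-length introns of each species are described here. In Dpse the leading intron was 131 nt long (utg000079l:2369221-2369351, minus strand) and had 8618 pairs, beside 0 pairs read through its 5′ border and 33 through its 3′ border. A second intron on the same contig and strand (utg000079l:2368755-2368936) had 4501 pairs, and the other members of the top 5 had 6595, 3461 and 2452 pairs. In Deug the leading intron was 296 nt long and lay in LOC121530328 (NW_024573369.1:2073739-2074034, minus strand) with 35967 pairs, or 5490 ppm. It was followed by introns with 26371 pairs (102 nt), 15427 pairs (126 nt, in LOC108113208), 12966 pairs (263 nt, in LOC108107346) and 9531 pairs (157 nt). In Dbif the leading intron had 135 nt (CM019043.1:8237795-8237929, plus strand) and 25571 pairs, and the others of the top 5 had 7785 to 10023 pairs. The retained share, defined next, was at most 0.291% in all 15 of these introns. Spliced pairs chose these introns and are also part of the denominator of that share, so its low value is a description only.

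Retained RNA was measured at the borders of each intron. A pair counted as read through when an unbroken block on the same strand reached at least 8 nt to both sides of a border and the pair did not splice the intron, and the mean of both borders was set against the spliced pairs with flanks of at least 8 nt. No read-through pair at either border was found for 64.9% of members in Dpse (interval 63.3 to 66.6), 76.1% in Deug (74.7 to 77.5) and 65.7% in Dbif (63.9 to 67.4). The share of short introns without any such pair was 85.9%, 89.3% and 87.6%. In each library a larger share of mid-length than of short introns thus had at least 1 read-through pair. This share also depends on read depth, and a level of at least 100 spliced pairs was commoner among mid-length introns than among short ones. The part of depth in the difference was not tested.

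A retained share of at least 10% was reached by 196 members in Dpse (5.94%, interval 5.15 to 6.80), against 2.70% of all isolated introns there. It was reached by 129 members in Deug (3.62%, 3.03 to 4.28), against 3.00% of all isolated introns. In Dbif 223 members reached it (7.38%, 6.47 to 8.37), against 3.55% of all. Short introns passed at 1.36%, 1.70% and 1.82% in the same order, and long ones at 5.50%, 8.50% and 8.67%. In both obscura group libraries the mid-length share was more than 3 times that of short introns, and the Deug interval lay below both of theirs. The Deug share was close to its background, and the Dpse interval overlapped that of long introns (4.62 to 6.49).

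**Figure D2:**
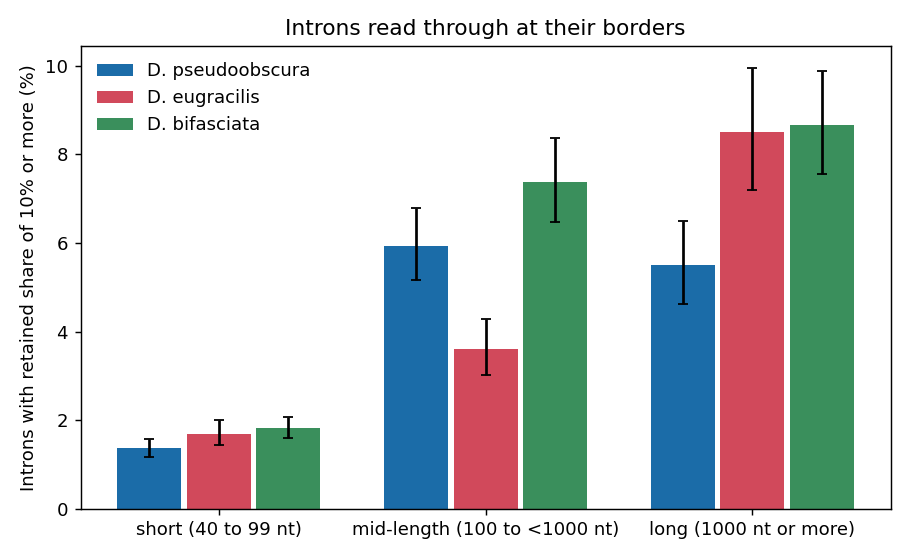
Share of isolated introns with a retained share of 10% or more (y axis, percent) by length class (x axis) and species, with exact 95% binomial intervals as error bars. Mid-length bars stood at 5.94%, 3.62% and 7.38%, above the short bars at 1.36% to 1.82% in every species.

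Introns with a high retained share mostly had few spliced pairs, but spliced pairs are also part of the denominator of that share. The split by number of pairs is therefore tied to the measure and is a description only. Among members of at least 100 pairs a retained share of 10% was reached by 4 of 448 in Dpse, 5 of 659 in Deug and 12 of 589 in Dbif. Introns of 10% to under 50% numbered 167, 104 and 162 and had a median of 19, 16 and 20.5 pairs. Their median lengths were 288, 338 and 282 nt, near those of the class. More pairs were read through at the 5′ border in 512, 448 and 428 members and more at the 3′ border in 567, 347 and 566, so that the direction was not the same in the 3 libraries. Summed over all members the 5′ borders held more pairs in each library, with 24302 against 15759 in Dpse, 57384 against 30886 in Deug and 101691 against 54244 in Dbif. Single gaps weighed heavily in these sums. One gap per library gave 16193 and 8557 of these pairs in Dpse, 32929 and 19725 in Deug, and 31008 and 8407 in Dbif. The sums thus do not describe a typical member.

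A small set of members was mostly read through. A retained share of at least 50% was found for 29 members in Dpse (0.878%), 25 in Deug (0.701%) and 61 in Dbif (2.02%), against 0.556%, 1.02% and 1.14% of all isolated introns. Their medians were 16, 18 and 16 pairs. Border pairs summed to at least 1000 in only 2 of the 29, 3 of the 25 and 11 of the 61. The most extreme one per species, picked after its values were seen, had 11 spliced pairs beside 16193 pairs at the 5′ and 8557 at the 3′ border in Dpse (186 nt). In Deug it had 18 spliced pairs beside 32929 and 19725 (180 nt), and in Dbif 15 beside 31008 and 8407 (294 nt). These 3 gaps met the rule for members, although their retained share was over 99.9%.

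They also set the pooled level of retention. Summed over all members, read-through pairs made up 7.23% of the total in Dpse, 6.62% in Deug and 11.9% in Dbif. Without the introns of at least 50% the pooled shares were 0.823%, 0.309% and 0.538%. The order of the libraries changed with this step, from highest in Dbif to highest in Dpse.

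Among members of at least 100 pairs, the 3 with the highest retained share are given for each species. In Dpse the highest retained share among members of at least 100 pairs was 50.7%, in an intron of 227 nt (utg000060l:537039-537265, minus strand) with 156 spliced pairs and 303 and 18 pairs at its 5′ and 3′ borders. In Deug it was 87.6%, in an intron of 228 nt in LOC108103220 (NW_024573052.1:208155-208382, minus strand) with 134 spliced pairs and 98 and 1804 border pairs. In Dbif it was 81.3%, in an intron of 229 nt (CM019041.1:1413040-1413268, plus strand) with 152 spliced pairs and 366 and 954 border pairs. Unequal borders marked all 3 of these. The Dbif intron ended exactly where the next gap started, and so did an intron of 226 nt (CM019043.1:45947851-45948076) with 119 spliced pairs and a retained share of 68.0%. No other member in any library had its next intron at 0 nt. Both of these Dbif introns lay inside 1 other intron of at least 10 pairs on the same strand, and the Deug intron in LOC108103220 lay inside 2.

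The remaining introns named by this rule were less extreme. In Dpse they had 848 nt and 20.3%, and 572 nt with 89 spliced pairs beside 4 and 18 border pairs. In Deug they had 121 nt and 53.5% (in LOC108113425), and 317 nt and 46.0% (in LOC108111999). In Dbif an intron of 253 nt reached 68.0% with 131 spliced pairs and 249 and 308 border pairs, so that both of its borders were read through alike.

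Pairs lying wholly inside a member were counted apart from the border pairs, and were also found in introns without any border pair. At least 1 such pair on the intron's own strand was found in 34.7% of members in Dpse (interval 33.0 to 36.3), 17.1% in Deug (15.9 to 18.4) and 21.6% in Dbif (20.1 to 23.1), against 17.5%, 11.0% and 12.4% of all isolated introns. No such pair lay in 12982 of 13015 short introns in Dpse, 8591 of 8603 in Deug and 13443 of 13447 in Dbif. Among long introns it was 285 of 2382, 735 of 1636 and 633 of 2296. Most isolated introns were short, and a pair counted only when all its aligned blocks fitted inside the intron. A short intron can hardly hold such a pair. The excess of members over all isolated introns, and the rise with length given below, are thus tied to intron size by the measure. Both are a description only. At least 1 pair on the opposite strand was found in 6.39%, 3.28% and 3.51% of members. The same-strand share thus exceeded the opposite-strand share in each library, and both were highest in Dpse. Longer members held such pairs more often, from 11.8% of those of 100 to 199 nt to 68.8% of those of 900 to 999 nt in Dpse, from 5.39% to 43.8% in Deug and from 4.41% to 47.7% in Dbif. The share with a retained share of at least 10% showed no such rise with length, at 6.13% and 3.47% in these bins in Dpse, 2.93% and 5.62% in Deug, and 7.25% and 7.69% in Dbif. At least 10 pairs inside on the own strand were found in 189, 65 and 127 members, or 5.72%, 1.82% and 4.20%, close to or below the 6.10%, 2.35% and 4.06% of all isolated introns. Among long introns the share was 39.7%, 15.8% and 27.7%, and among short ones it was at most 0.0384%. At least 10 on the opposite strand were found in 15, 13 and 15 members, or 0.454%, 0.364% and 0.496%, against 0.973%, 1.22% and 0.964% of all isolated introns.

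Mid-length introns lay close to the next intron. The median distance from the 3′ end of a member to the next downstream intron of at least 10 pairs on its strand was 337 nt in Dpse (314 to 359), 478 nt in Deug (441 to 526) and 345 nt in Dbif (320 to 375). Short introns lay 549, 643 and 576.5 nt from theirs, and long introns 309, 370 and 337.5 nt. The next intron started within 200 nt after 35.6%, 29.2% and 35.9% of members and within 1000 nt after 72.6%, 61.7% and 71.2%. The Deug interval lay above both others, but the distance also spans gene ends, and Deug had the fewest introns to be met. The part of that number in the difference was not tested.

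**Figure D3:**
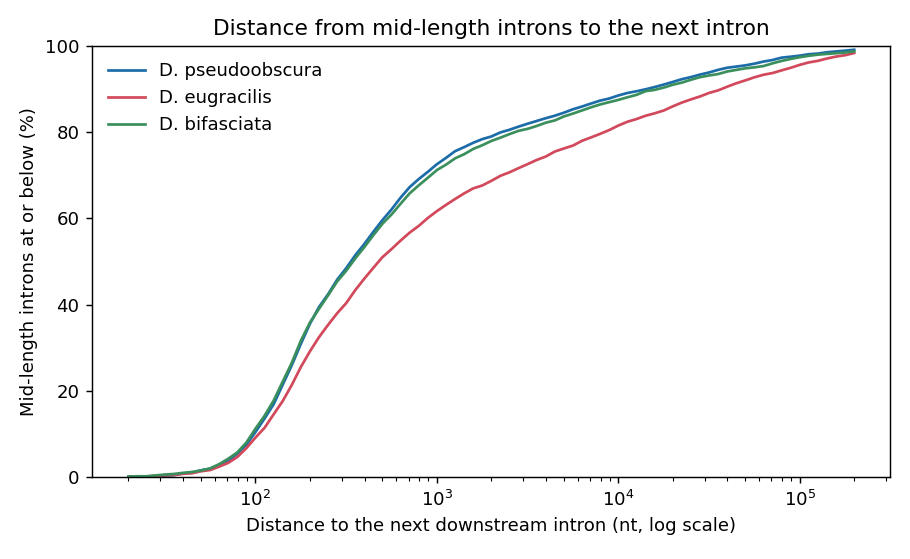
Cumulative share of mid-length introns (y axis, percent) by the distance to the next downstream intron of the same strand (x axis, nt, log scale). The lines of both obscura group species ran together, and the Deug line ran below them from about 100 nt onwards.

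Where every base up to the next intron was covered by reads of the same strand, the distance was alike in the 3 species. The stretch was covered in full after 76.4% of members in Dpse, 61.6% in Deug and 73.8% in Dbif, with a median of 217, 211 and 210 nt. A covered exon between isolated introns lay downstream of 73.2%, 52.2% and 66.4% of members, but upstream of only 53.4%, 47.2% and 45.0%. Introns inside another intron of the same strand were not joined in this way, and their part in the differences between libraries was not tested. For short introns the order was the reverse, at 72.3%, 52.9% and 64.8% upstream and 62.7%, 47.0% and 56.5% downstream. A covered exon was thus commoner downstream than upstream of mid-length introns in each library, and commoner upstream than downstream of short ones. Long introns resembled the mid-length ones here, at 75.8%, 55.2% and 63.8% downstream and 51.0%, 35.1% and 43.0% upstream.

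The class of the next intron was looked up as well. When a covered exon joined a member to the next isolated intron, that intron was mid-length in 21.3% of cases in Dpse (interval 19.7 to 23.0), 540 of 1863 in Deug (26.9% to 31.1%) and 19.9% in Dbif (18.2 to 21.7). After a short intron it was mid-length in 11.5%, 22.0% and 9.65%, and among all isolated introns the class made up 17.7%, 25.8% and 16.1%. After a long intron it was mid-length in 17.3% (15.6 to 19.2), 28.2% (25.3 to 31.3) and 15.5% (13.7 to 17.5). The share after a mid-length intron thus lay above the share after a short one in each library, while in Deug it was close to the share after a long one.

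In Deug 3282 of the 3569 members (92.0%) lay inside exactly 1 annotated gene, and 3267 of these in a protein coding gene. Of the short introns 93.4% lay inside exactly 1 gene, and of the long ones 82.8%. Of the 8033 short introns inside exactly 1 gene, 8030 lay in a protein coding gene. The contig of each gene was inferred from the spliced reads and is not annotated. Genes were placed on a contig only where most of its spliced gaps fell inside a gene. The share of members inside a gene is thus tied to the placement and is a description only. The members fell in 2201 genes, of which 65.8% held just 1. The midpoint of a member lay at a median of 44.8% of the gene's length from its 5′ end (43.0 to 46.4), against 55.9% for short introns (55.1 to 57.2) and 40.9% for long ones (39.6 to 42.3). The first of 4 equal parts of the gene held 28.5% of members, 21.7% of short introns and 19.4% of long ones. Members were thus placed further 5′ than short introns, and their gene spans were longer, with a median of 3786.5 nt against 3178 nt. A gene span includes its introns, so the longer span is in part set by the length classes.

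Some genes were rich in mid-length introns. LOC108112856 held 8 of them among 12 isolated introns, with 111 to 870 nt and 10 to 32 pairs. LOC108104530 held 7, which were all of its isolated introns, within a gene span of only 2 kb (NW_024572605.1:5325801-5327845), with 182 to 263 nt and 24 to 146 pairs. LOC108109056 held 7 of 10, with 206 to 898 nt and 12 to 47 pairs.

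To compare the same intron between species without genome sequence, runs of 3 neighbouring exons were used, each exon covered in full and lying between isolated introns. A run was matched when its 3 exon lengths, in order, occurred once in each of the species compared, and the introns between the exons were then set side by side. Neither intron length nor any gene name entered this match. A gene name given with a matched intron is that of the Deug intron, and no gene identity in Dpse or Dbif follows from the match. The exon just beyond a matched run was not used either. Where it was known in both species, it had the same length in 76.0% of cases upstream (698 of 919) and 83.9% downstream (698 of 832) between Dpse and Dbif, in 74.9% and 84.8% between Dpse and Deug, and in 74.4% and 82.2% between Dbif and Deug. Runs overlap, so the upstream and downstream counts share their matches.

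Mid-length introns of Dpse and Dbif had nearly the same length. Of 1989 matched introns 232 were mid-length in both, and the longer of a pair exceeded the shorter by a median factor of 1.07. Lengths lay within 10% of each other for 63.8% of these (interval 57.2 to 70.0) and more than 2-fold apart for 4.31% (2.09 to 7.78). These were 232 of the 277 mid-length in Dpse and of the 253 in Dbif. Between Dpse and Deug 116 introns were mid-length in both (of 158 in Dpse and 241 in Deug), the median factor was 1.21, and 27.6% lay within 10% (19.7 to 36.7). Between Dbif and Deug there were 92 (of 110 and 180), with a factor of 1.24 and 28.3% within 10% (19.4 to 38.6). Pearson's r of log2 length was 0.91, 0.68 and 0.71 in these pairs of species, as a description across introns that share their libraries. The longer intron of a pair could lie in either species, with 99 longer in Dpse and 128 in Dbif, 54 in Dpse and 62 in Deug, and 39 in Dbif and 52 in Deug.

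Where the class of an intron differed, it was mostly the Deug intron that was longer. Runs found in all 3 species held 646 introns, of which 97 were mid-length in Dpse, 89 in Dbif and 150 in Deug (13.8% in Dbif and 23.2% in Deug). In all 3 species 428 of them were short and 74 mid-length. A further 69 were short in both obscura group species and mid-length in Deug, while only 5 were mid-length in both obscura group species and short in Deug. Introns that were mid-length in a single obscura group species and short elsewhere numbered 8 in Dpse and 4 in Dbif. The 69 made up 46.0% of the 150 Deug mid-length introns in such runs (interval 37.8 to 54.3). These species alone do not tell which length is the older one. The counts are a description, since length is also what defines the classes.

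**Figure D4:**
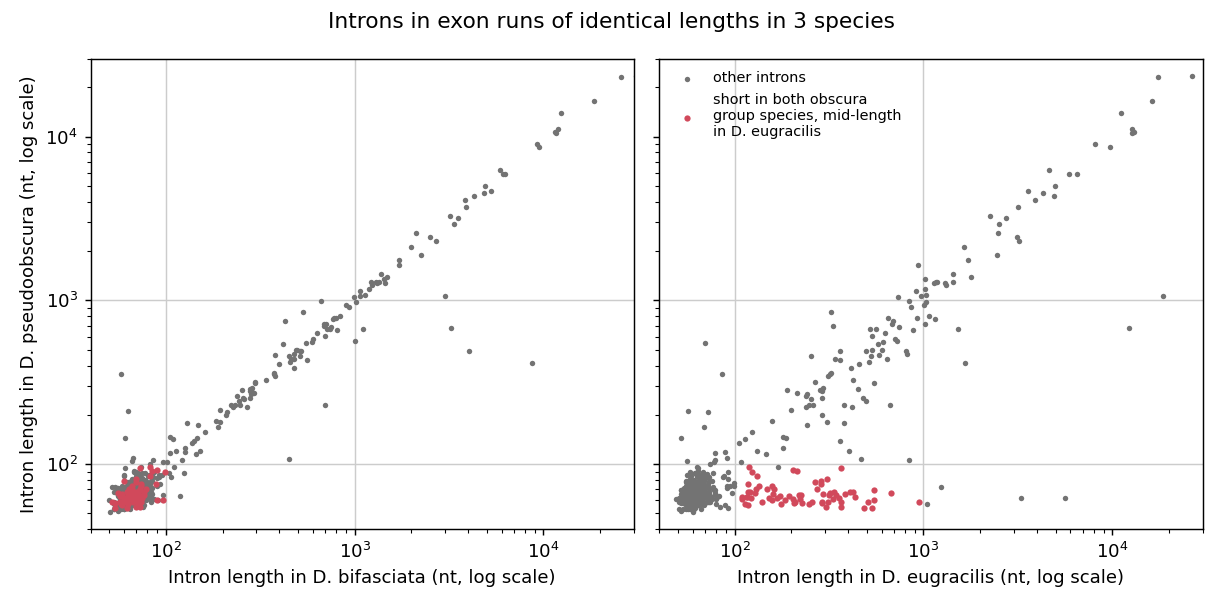
Length of each of the 646 introns in runs of 3 exons of identical lengths in 3 species, in Dpse (y axis) against Dbif (x axis, left) and Deug (x axis, right), in nt on log scales; grey lines mark 100 and 1000 nt. The 69 red introns lay below 100 nt in both species on the left and between 109 and 942 nt in Deug on the right.

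In the obscura group the 69 introns had about the length of other short introns. Their median length was 64 nt in Dpse (54 to 96) and 67 nt in Dbif (52 to 99), against 221 nt in Deug (109 to 942). They were thus not only introns that happened to fall on either side of 100 nt. The Deug length exceeded the longer of the other lengths by a median factor of 3.38, and at least 2-fold in 53 of 69. In Deug 41 of them had 200 nt or more. Their median level was 36, 51 and 38 pairs in Dpse, Dbif and Deug, beside 42, 58 and 36 pairs for the 428 introns that were short in all 3 species.

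Read-through was rare in the 69, as in the other matched introns. A retained share of 10% was reached by 0 of the 69 introns in each of the 3 libraries. A simple floor of 3 counts (3 of 69, not an exact interval) allows a share of up to 4.35%. The 10% mark was reached by 0, 1 and 1 of the 74 introns that were mid-length in all 3 species (in Dpse, Dbif and Deug). Of the 428 that were short in all 3 it was reached by 1, 1 and 0, so the count of 0 does not set the 69 apart. No read-through pair at either border was found for 56 of them in Dpse, 62 in Dbif and 65 in Deug, or 81.2%, 89.9% and 94.2%. Among the introns that were short in all 3 species it was 87.4%, 90.2% and 95.6%, and among those mid-length in all 3 it was 75.7%, 66.2% and 79.7%. Pairs inside the intron were seen in 3 of the 69 in Deug. In that species 65 of them lay in exactly 1 gene, in 58 genes in all, and 7 genes held 2 each.

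The most spliced of the 69 differed in how much longer they were in Deug. Gene names of matched introns, here and below, are those of the Deug intron. In LOC108111998 the intron had 92 nt in Dpse, 90 nt in Dbif and 205 nt in Deug, between exons of 234 and 78 nt, with 200, 329 and 366 pairs. In LOC108109546 it had 63, 64 and 117 nt between exons of 820 and 324 nt, with 85, 342 and 212 pairs. In LOC108113735 it had 58, 54 and 227 nt between exons of 121 and 71 nt, with 16, 76 and 541 pairs. These 3 were picked by their summed pairs after the pattern was seen. The largest difference was found for an intron of 59, 57 and 942 nt between exons of 60 and 55 nt, with 28, 48 and 65 pairs, on a contig for which no genes were placed.

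The 5 introns of the opposite kind were given in full as far as genes were placed. In LOC108102915 the intron had 549 nt in Dpse, 553 nt in Dbif and 70 nt in Deug. In LOC108103771 it had 208, 212 and 72 nt, in LOC108103754 169, 188 and 69 nt, and in LOC108109087 119, 126 and 89 nt. The last one, on a contig without placed genes, had 117, 106 and 79 nt.

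Where an intron was mid-length in all 3 species, its length was also more alike in the obscura group. Among these 74 introns the medians were 301 nt in Dpse, 319.5 nt in Dbif and 369.5 nt in Deug. The obscura group lengths were nearer to each other than either was to Deug in 49 of 74. The longest of the 3 was the Deug one in 39 introns, the Dbif one in 23 and the Dpse one in 14, ties counted for each.

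Among the most spliced matched introns some had almost the same length in all species and others differed widely. In LOC108114571 the intron had 229, 233 and 662 nt in Dpse, Dbif and Deug between exons of 98 and 172 nt, with 531, 2957 and 1722 pairs. LOC108107782 held 3 of the top 5, of 283, 282 and 282 nt, of 228, 246 and 259 nt, and of 278, 279 and 289 nt. All 3 of these had a retained share under 1% in every library. An intron in LOC108104407 straddled the limit of the class, at 1069, 1070 and 965 nt. The widest ratios came from introns that were long in some species, at 412, 8665 and 1661 nt between exons of 95 and 65 nt and at 679, 3255 and 12319 nt between exons of 685 and 152 nt.

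QuantSeq reads of Deug gave a further look at its members in another library. At least 1 QuantSeq read spliced 792 of 3569 members (22.2%, interval 20.8 to 23.6), against 20.3% of all isolated introns. The share rose with the polyA level, from 13.6% of members with 10 to 19 pairs to 46.9% of those with at least 100 (43.0 to 50.8). Of the spliced QuantSeq reads 60384 lay on the strand of the polyA intron and 50 on the other. Over 4 equal parts of the gene, from its 5′ end, the share was 23.2%, 16.1%, 22.3% and 25.5%. Of the 69 introns that were short in the obscura group, 7 were spliced in QuantSeq (10.1%, 4.18 to 19.8).

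**Figure D5:**
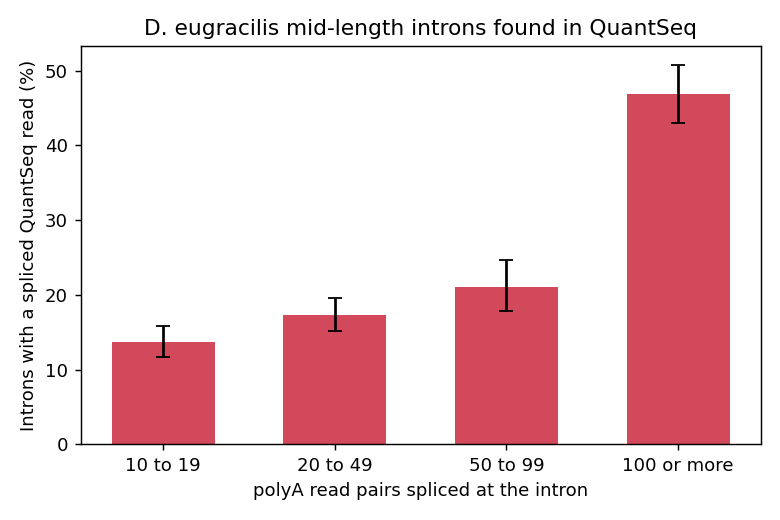
Share of Deug mid-length introns spliced by at least 1 QuantSeq read (y axis, percent) by the number of polyA pairs that spliced the intron (x axis), with exact 95% binomial intervals. The share rose from 13.6% to 46.9%.

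Single introns could differ widely between the libraries, as in these examples from the 5 most spliced members. The most spliced member, in LOC121530328, had 35967 polyA pairs and 0 spliced QuantSeq reads, while the one in LOC108107346 had 12966 polyA pairs and 18438 spliced QuantSeq reads.

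QuantSeq reads lying wholly inside an intron were rare for most members. At least 10 of them on the intron's strand were found in 135 members (3.78%, interval 3.18 to 4.46), against 3.87% of all isolated introns, 2 of the 8603 short introns and 24.3% of the long ones. Of these 135 members 35 also held at least 10 polyA pairs inside and 43 had a retained share of at least 10%. The most such reads, 1536, lay in an intron of 682 nt in LOC108111998, which had 12 spliced polyA pairs, 491 polyA pairs inside and 76 pairs across its 5′ border, but 0 across its 3′ border. An intron of 317 nt in LOC108111999 followed with 1428 reads, 176 spliced pairs and 285 and 10 border pairs. In LOC108116598 an intron of 863 nt held 1197 reads and 620 polyA pairs, with 0 pairs across either border. This intron also held 2 other introns of at least 10 pairs, and the one in LOC108111999 lay inside 1 other intron of its strand. The origin of the reads inside was not tested. In the first 2 of these introns the RNA was thus read across the 5′ border and hardly or not at all across the 3′ border.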

How the data were processed

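Following the labels and the published methods, the authors trimmed and quality-filtered the reads (FASTX-Toolkit), mapped them with STAR (version 2.7.3a, up to 3 mismatches) to a Nanopore assembly of D. pseudoobscura, to ASM1815383v1 (D. eugracilis) and to UCBerk_Dbif_1.0 (D. bifasciata), and kept genome-unique mappers. SAMtools 1.10 and bedtools 2.28.0 are also named in the submitters' processing notes. The deposited alignment lists hold 1 line per aligned read with its blocks and a score for the mapping that has the same value throughout and was not used. Reads of repeated sequence are therefore missing from all values. For Dbif the description label carries the wrong species name (D. eugracilis), whereas title, organism and contigs are those of D. bifasciata. The labelled strains are not the stock names of the published methods.

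Introns, borders, distances and exon runs were counted in Python 3.11.15 (numpy 2.4.6, pandas 2.3.3, numba 0.67.0, scipy 1.17.1) and the code was tested on simulated alignments. Neighbouring introns had at least 40 nt and at least 10 pairs. The limit of 40 nt was set after very short gaps, such as deletions, had been seen. Shares have Clopper-Pearson intervals, and medians have intervals from order statistics. Reads carry no molecular identifiers, so intervals cover counting error only. The members and lists were chosen with earlier results of these data known.

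The gene table of ASM1815383v1 gives starts and ends of 15386 genes but no contig. Runs of rising start were placed on contigs by spliced gaps. A contig needed at least 30 of them, at least 90% inside a gene, and an end within 10% of the last gene's. This placed 14155 genes (92.0%) in 55 runs, with at least 93.6% of gaps inside a gene and at most 88.0% on the next best contig. A run's contig was inferred and not read from an annotation.

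Named introns were the 5 with most pairs and the 3 with the highest retained share among at least 100 pairs per species, the 3 with most QuantSeq reads inside in D. eugracilis, and among introns matched in 3 species and mid-length in at least 1, the 5 with most pairs and the 3 with the largest length ratio. Lists of ribosomal protein, piRNA pathway, oogenesis and cell type marker genes were planned but could not be looked up, since the table holds no descriptions. No genome sequence was used, so splice site and intron sequences are not shown.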

Additional observations from a re-analysis of the deposited data

How the results depend on the processing

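Values are given for Dpse, Deug and Dbif in this order. With at least 20 pairs asked of an intron and of its rivals, the median level was 6.21, 7.63 and 7.29 pairs per 1000000 read pairs (ppm) and the share with at least 10% retained fell to 4.40%, 2.61% and 4.99%. Counting distinct pairs once gave median levels of 5.30, 6.67 and 6.43 ppm and shares retained of 5.73%, 3.47% and 6.63%. Asking that no gap of even 1 pair share an end lowered the median length to 257, 261 and 250 nt. With blocks reaching only 3 nt across a border, the share retained was 7.30%, 3.92% and 10.7%, and with 15 nt it was 6.03%, 3.76% and 7.19%. The median distance to the next intron was 277, 350 and 272 nt with next introns of at least 3 pairs, and 217, 211 and 210 nt over stretches covered in full. Asking for 3 QuantSeq reads lowered the share of spliced Deug members to 13.4%, and for members of at least 100 pairs it was 46.9%.

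The share retained was lowest in Deug under each of these settings. With 2 exons per run, an alternative added after seeing the data, 102 introns were short in the obscura group and mid-length in Deug and 14 the reverse, of 930. With 4 exons it was 43 against 3 of 400, and with at least 20 pairs in each species 45 against 5 of 420. The median length without members of at least 50% retained share, also added later, was 290, 275 and 273 nt. No paired analysis was possible because each species had 1 library and no result came from a test. Depth limits the retained share, since a share of 10% at 10 spliced pairs rests on about 1 pair.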
